A study of Mus musculus with 4 samples.

Results

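N6-methyladenosine (m6A) is a methyl mark on adenosines of messenger RNA. METTL3 is the catalytic subunit of the nuclear writer complex that places most of it, and METTL14 and WTAP are partners in that complex. Other enzymes methylate a few adenosines of their own, such as METTL16 in Mat2a mRNA. GLORI reads the mark by chemistry: glyoxal and nitrite deaminate unmethylated adenosines, which are then read as G, while a methylated adenosine stays A. A site's level is the fraction of reads at an adenosine that still read A, so an adenosine that escaped the chemistry also has a level above 0. In libraries labelled as Mettl3 knockout, recurrent sites are adenosines that read as unconverted in each library, whatever the reason.

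The sites described here are those that both Mettl3 knockout (KO) libraries share and neither wild-type (WT) library lists. They number 3244 of the 881997 positions listed in any of the 4 libraries, or 0.368%. Positions were joined by chromosome, coordinate and strand, and each had to be covered by at least 50 reads (A plus G) in each KO library. They were thus chosen by their listing and coverage in the KO libraries and by their absence from the WT lists. The level against the minimum, the coverage and that absence are therefore given as a description without a test. The difference between the KO replicates, which the rule did not use directly, was tested. Listing in each library depends on level and depth, so that difference is not wholly free of the rule.

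The samples were mouse retinal organoids at day 4 of differentiation. The WT group held 2 libraries of the line Rx:GFP, and the KO group held 2 libraries of the line Mettl3 KO Rx:GFP, with genotype Mettl3 KO. The growth protocol describes the KO line as carrying a Dox-inducible HA-METTL3, and the treatment label reads "No" for all 4 samples. All 4 were grown in the same supplemented GMEM with AGN, and all carry the same batch label. The labels name 1 KO line and do not say whether replicates came from separate cultures, so p-values measure only the spread between these libraries, which may be technical.

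The lists hold only positions with at least 15 reads, at least 5 unconverted reads and a level of at least 0.1. They held 215850 to 288516 positions per library, covered by 13214893 to 21400899 reads at those positions in all. A position absent from a list may thus have a level below 0.1, too few reads, or a p-value above the lists' limit. Mettl3 itself had a relative coverage, its gene coverage over the median of all genes in that library, of 1.01 and 0.801 for WT and of 1.16 and 1.04 for KO. Its log2 difference was 0.29 ± 0.18 (SE), with an adjusted p of 0.349 by limma over all genes. Gene coverage cannot show a small deletion or tell the endogenous gene from a transgene, so it does not check the genotype label. Among markers of the labelled tissue, 3 of 6 eye field genes had a value in all 4 libraries, and by limma Six3 and Lhx2 were lower in the KO, beside 3.03% of all genes tested. Pax6, the third, had a log2 difference of 0.12 and an adjusted p of 0.728 by limma. The summed relative coverage of that list was 22.8 and 24.5 in WT and 5.05 and 5.31 in KO libraries. Six3 alone made up 16.3 and 17.6 of the WT sums and 1.81 and 2.45 of the KO sums. A lower coverage in bulk organoids cannot separate fewer cells of a type from less RNA per cell. Of 4 neural progenitor markers, Sox2 was lower, and the list's summed relative coverage was 18.6 and 20.4 in WT and 14.7 and 12.5 in KO libraries. Sox2 alone made up 12.1 and 12.6 of the WT sums and 8.00 and 6.35 of the KO sums. Sox1, Sox11 and Nes did not pass, with log2 differences from -0.16 to -0.15 and adjusted p from 0.629 to 0.662 by limma. Of the pluripotency markers, 3 of the 4 tested were lower, beside the same 3.03%, and none of the 5 mesendoderm markers had a value to test. Of 2 neural crest and dorsal midbrain markers tested, Wnt1 was higher, beside 2.56% of all genes. Foxd3, the other, had a log2 difference of -0.09 and an adjusted p of 0.790 by limma. The summed relative coverage of that list was 1.18 and 0.946 in WT and 2.04 and 2.48 in KO libraries. Its rise came from Wnt1, as Foxd3 had 0.772 and 0.644 in WT and 0.709 and 0.615 in KO libraries.

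A comparison of all library pairs places the KO-only sites beside those of other pairs. By the same rule, the WT libraries alone shared 12690 sites. Pairs of 1 WT and 1 KO library alone shared 2905 (WT 1 with KO 1), 2996 (WT 1 with KO 2), 3826 (WT 2 with KO 1) and 3434 (WT 2 with KO 2). The 3244 sites of the KO pair thus lay inside the range of the mixed-genotype pairs, while the WT pair shared many more. The KO count stayed inside that range at coverage minimums of 100 reads (1016 against 934 to 1250) and 200 reads (232 against 201 to 335). With levels of at least 0.3 in both libraries, 54 KO-only sites remained, against 36 to 67 in mixed pairs and 3643 in the WT pair. These pairs share libraries and differ in depth, and no test was made on the counts.

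**Figure D1:**
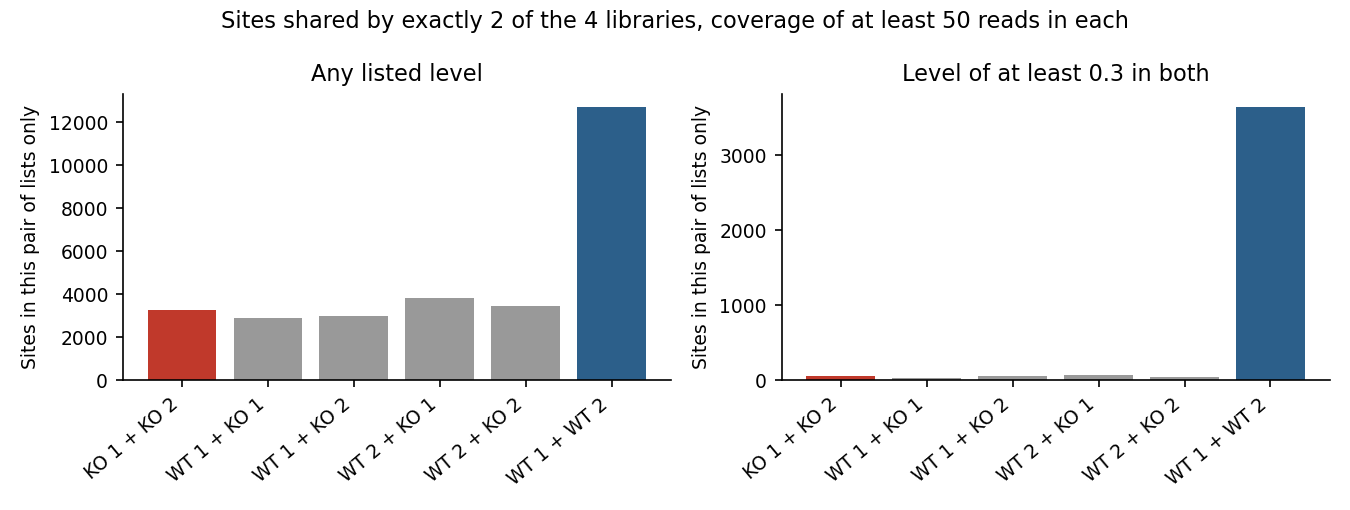
Number of sites (y axis) found in exactly 2 of the 4 lists with at least 50 reads in each, for each pair of libraries (x axis); the left panel has all levels and the right panel only levels of at least 0.3 in both. The red bar of the KO pair (3244 and 54) stands at the height of the grey mixed-genotype pairs, and the blue bar of the WT pair (12690 and 3643) stands above them.

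Of the 5428 sites that both KO lists covered by at least 50 reads, these 3244 are 59.8%. A further 466 were also in the list of WT replicate 1 only, 554 in that of WT replicate 2 only and 1164 in both. Lowering the coverage requirement altogether would give 8205 sites shared by the KO lists and absent from the WT lists. Sites just inside the coverage minimum were in Nif3l1 (57 and 50 reads, levels 0.175 and 0.220) and Ttll4 (84 and 50 reads, levels 0.131 and 0.180). Just outside it were sites in Mitd1 (64 and 49 reads, levels 0.172 and 0.204) and Ttll4 (89 and 49 reads, levels 0.348 and 0.163).

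Most KO-only sites sat near the lowest level the lists allow. The median level was 0.135 in KO replicate 1 and 0.157 in KO replicate 2, and the mean of those medians was 0.146 ± 0.0157 (SD, n = 2 libraries). By the mean of both libraries, 1518 sites (46.8%) lay between 0.1 and 0.15, 1029 between 0.15 and 0.2, and 527 between 0.2 and 0.3. Another 153 lay between 0.3 and 0.5, 12 between 0.5 and 0.7, and 5 at 0.7 or above. The share with a mean level of at least 0.3 was 5.24%, against 6.20% to 6.79% in the mixed-genotype pairs and 36.5% in the WT pair. Coverage had a median of 109 reads in KO replicate 1 and 83 reads in KO replicate 2, and reached 4451 and 3235 reads.

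**Figure D2:**
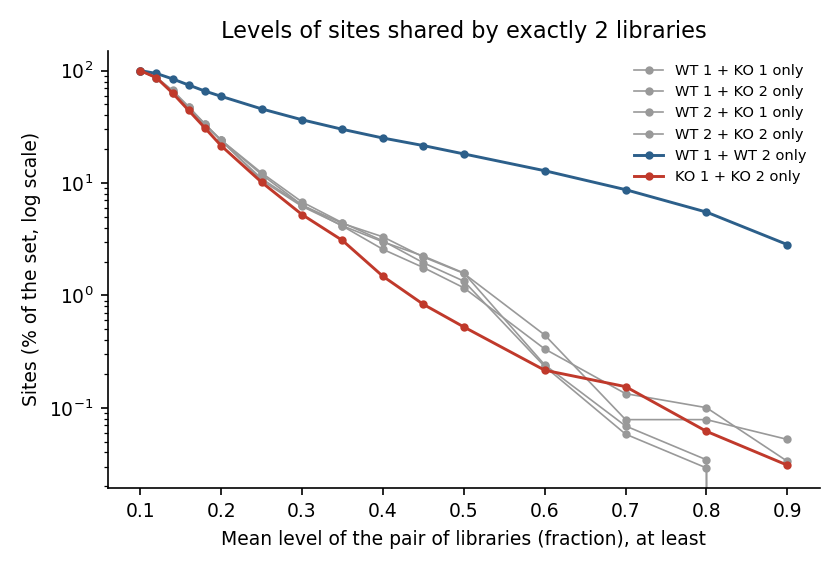
Percent of each set (y axis, log scale) whose mean level over its pair of libraries is at least the value on the x axis, a fraction of unconverted reads; lines stand for sites shared by exactly 2 libraries. The red line of the KO pair falls to 5.24% at a level of 0.3, close to the grey mixed-genotype pairs (6.20% to 6.79%), while the blue line of the WT pair is at 36.5%.

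Deeply read sites had levels near the minimum. The 232 KO-only sites with at least 200 reads in each KO library had median levels of 0.119 and 0.132, and their highest mean level was 0.325. The most deeply read site lay in Eef1a1, which encodes the translation elongation factor that brings aminoacyl-tRNA to the ribosome. Its level was 0.107 at 4451 reads in KO replicate 1 and 0.144 at 3235 reads in KO replicate 2. A site in Ctsd, the lysosomal protease cathepsin D, had levels of 0.113 (2068 reads) and 0.117 (1517 reads). One in Eif3f, a subunit of a translation initiation factor, had levels of 0.110 (1936 reads) and 0.111 (1402 reads). Sites in Igfbp2 (0.100 and 0.132) and Gsk3a (0.100 and 0.121), and 1 outside any same-strand gene on chromosome 4 (0.103 and 0.110), complete the 6 with the highest lower coverage. All 6 had both levels under 0.15.

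Levels at individual sites varied between the KO libraries. Across the 3244 sites, Pearson's r between KO replicates was 0.305 and Spearman's rank correlation 0.206, as a description across sites that share library and depth and span a narrow range of levels. For the 12690 WT-only sites, whose levels span a wider range, r was 0.852. In the mixed-genotype pairs r ran from 0.116 to 0.201 and Spearman's rank correlation from 0.149 to 0.213. By r the KO pair thus lay above every mixed pair, and by rank inside their range, with no test made. KO-only sites were higher in KO replicate 2 in 2063 cases, higher in replicate 1 in 1175 and equal in 6. A two-sided Fisher's exact test on the read counts of each site compared these 2 libraries, with Benjamini-Hochberg adjustment over the 11878 sites the KO lists share. Of those 11878, 8.79% had levels that differed between KO replicates, 864 of them higher in KO replicate 2 and 180 higher in replicate 1. The KO-only sites shared that direction with all sites of the KO lists. Both sets hold only sites listed in both libraries, and listing depends on depth, so the direction is not free of that choice. Among the KO-only sites 316 of 3244 (9.74%) differed, 266 of them higher in KO replicate 2 and 50 higher in replicate 1. Between the WT replicates, the same test called 16.5% of the 28686 sites the WT lists share and 20.0% of the 12690 WT-only sites. The sets differ in depth and level, and no test was made between their shares. Reads are not independent molecules where no molecular identifiers are used, so these tests cover counting error only.

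Sites with a high mean level were often unequal between the libraries. Of the 170 KO-only sites with a mean level of at least 0.3, 93 (54.7%) differed between the replicates, and 79 of those were higher in KO replicate 2. Where most levels lie near the minimum, choosing by a high mean favours sites that are high in only 1 library. No share was computed for other sets at that level, so this one is a description. A level of at least 0.5 was reached in either KO library at 87 sites and in both at 7. At 42 sites 1 library was at 0.5 or above and the other under 0.2, and the high library was KO replicate 2 in 39 of them. Syne2, which encodes a nuclear envelope spectrin-repeat protein, held the most extreme case named by the rule, with 0.137 in KO replicate 1 (102 reads) and 1.00 in KO replicate 2 (79 reads). Rpsa, a small-subunit ribosomal protein gene, had 0.420 (81 reads) and 1.00 (62 reads), and Arhgef3 had 0.514 (107 reads) and 0.984 (63 reads). All 3 differed between the replicates, which leaves few sites that were both high and alike.

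**Figure D3:**
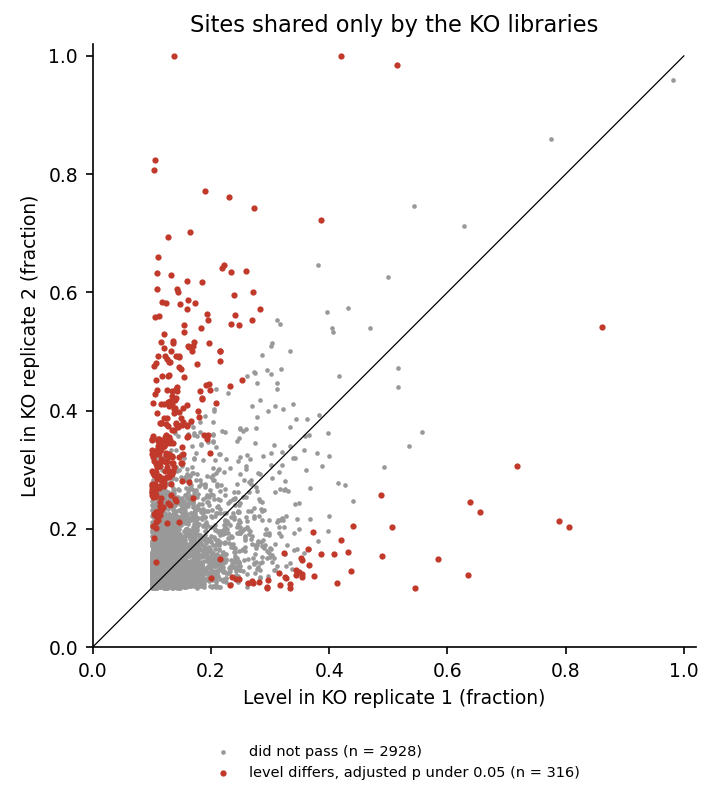
Level of each KO-only site in KO replicate 1 (x axis) and KO replicate 2 (y axis), as fractions of unconverted reads; each point is 1 of the 3244 sites, red where Fisher's exact test found the libraries to differ (316 sites), and the line marks equal levels. Red points lie mostly above the line, 266 against 50, and few points are high on both axes. Over all sites shared by the KO lists, not drawn, the split was 864 against 180.

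The 7 sites with a level of at least 0.5 in both KO libraries are in Gm6789, Cd2ap, Ctps, Gm6452, Tmbim6, Arhgef3 and Tpi1. The highest was in Gm6789, a pseudogene, with levels of 0.981 (105 reads) and 0.959 (98 reads). Gm6452, also a pseudogene, had 0.544 (103 reads) and 0.747 (79 reads). Reads of a pseudogene can come from its parent gene or a near-identical copy, so the position of these sites is uncertain. Cd2ap, an adaptor protein of the actin cytoskeleton, had 0.775 (71 reads) and 0.860 (57 reads) at an adenosine that the lists mark as intronic. Ctps, which encodes the enzyme that makes CTP, had 0.627 (51 reads) and 0.712 (52 reads). The glycolytic enzyme gene Tpi1 had 0.862 (87 reads) and 0.541 (61 reads). Tmbim6, a membrane protein gene of the endoplasmic reticulum, had 0.5 (64 reads) and 0.627 (75 reads). Of these 7, Arhgef3 and Tpi1 differed between KO replicates and the other 5 did not pass that test.

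Adenosines of the host genes were converted almost completely. The deposited conversion rate of a gene is the percent of its adenosine reads that were converted. Its median over host genes was 96.1% and 96.2% in the WT libraries, and 97.1% and 96.6% in the KO libraries. The KO libraries were thus higher by 0.709 percentage points, with a two-sided exact permutation p of 0.333, the smallest that 2 against 2 libraries can give. Over all genes with a value in the 4 libraries the medians were nearly the same, at 96.1%, 96.2%, 97.2% and 96.6%. The median unconverted share of the host genes was 2.93% in KO replicate 1 and 3.48% in KO replicate 2. Set against that, a KO-only site's level was a median of 4.71 times its gene's unconverted share in KO replicate 1 and 4.62 times in KO replicate 2. That excess is built into the lists, which require a level of at least 0.1.

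No gene passed the test of conversion rate, made by limma on log odds over 8272 genes with a threshold of 0.05 on the adjusted p: 0.0% were called in the upward and 0.0% in the downward direction for KO against WT. Without adjustment, 651 passed upward and 410 downward at p under 0.05. Each library was centred on its median for this test. Of the 1875 host genes tested none was called, and 58.0% lay below the centre of the KO against WT difference, beside 53.8% of all genes tested. A gene's rate counts all its adenosines, among which the KO-only site is 1.

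Most sites lay in protein-coding genes. A host gene is the only protein-coding gene, or else the only other annotated gene, that spans the position on its strand. A single protein-coding host was found for 2805 sites (86.5%), against 84.4% to 86.2% in mixed-genotype pairs and 85.6% in the WT pair. Another 86 lay in a pseudogene and 19 in a long noncoding RNA, while 246 had no gene on either strand. The 2805 sites fell in 2020 genes, of which 1465 held 1 site, 391 held 2, 117 held 3 and 35 held 4. Host genes were well-covered genes, as a coverage minimum selects: their median coverage was 76.8, 91.3, 86.4 and 69.5 reads in WT 1, WT 2, KO 1 and KO 2, against 44.6, 50.0, 46.3 and 41.0 reads in the other genes.

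Only 4 host genes held more than 5 KO-only sites, and 8 held 5. Setd5, a SET-domain gene, held 8 sites, Kmt2d, a histone H3 lysine 4 methyltransferase, held 7, and Srrm2, a splicing factor with serine-arginine repeats, held 6. Polr2m, whose product associates with RNA polymerase II, held 6, and Hnrnpdl, an RNA-binding protein gene, and Igf2bp2 are, of the 8 genes with 5, those with the most deeply read sites. Mean levels ran from 0.111 to 0.272 in Setd5, from 0.113 to 0.198 in Kmt2d and from 0.115 to 0.347 in Polr2m. Setd5 had 66 and 107 listed positions of any kind in the WT lists and 98 and 96 in the KO lists, Kmt2d had 72 and 65 against 89 and 90, and Srrm2 108 and 120 against 108 and 113. Polr2m had fewer, 15 and 19 in WT against 30 and 26 in KO lists, Hnrnpdl had 37 and 42 against 34 and 44, and Igf2bp2 53 and 61 against 60 and 50. Coverage of Setd5 (log2 difference -0.09 ± 0.17, SE) and Kmt2d (0.15 ± 0.17) did not pass the test between KO and WT.

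In Setd5, a pair of neighbouring sites differed between the KO replicates in the same direction. At chr6:113129006 and chr6:113129009 on the plus strand, 3 bases apart, levels were 0.146 and 0.124 in KO replicate 1, and 0.397 and 0.377 in KO replicate 2. Both differed between replicates, with an adjusted p of 0.00181 and 0.00218 by Fisher's exact test. Sites this near lie on the same reads and are no separate observations. Another Setd5 site, at chr6:113128264, differed the other way, with 0.270 in KO replicate 1 and 0.108 in replicate 2. Coordinates here are copied from the lists unchanged. The submitters' processing notes name mm10, but only 43.7% of the KO-only sites fell inside protein-coding genes as the GRCm38 annotation places them, against 87.6% inside the same genes as the lists place them. The positions therefore do not follow the GRCm38 placement, and which build they do follow is unsettled. Bases around the sites were not analysed here.

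Igf2bp2 encodes an RNA-binding protein that is reported to bind m6A-marked messages. Its 5 KO-only sites lay within 837 bases, between chr16:21878546 and chr16:21879383 on the minus strand, 787 to 1624 bases from the gene's 3′ end. At chr16:21878957 the level was 0.437 in KO replicate 1 and 0.129 in KO replicate 2, which differed. At chr16:21879298, the deepest of the 5, it was 0.137 (313 reads) and 0.114 (367 reads). The expected WT coverage of that site, explained next, was 409 and 577 reads.

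Whether a KO-only site could have been listed in the WT depends on its WT coverage, which the lists do not give for absent positions. An expected WT coverage was computed from the KO coverage of the site, scaled by the ratio of its gene's coverage in WT to KO, and the lower estimate of both KO libraries was kept. Such a value existed for 2609 sites (80.4%). It was at least 50 reads in both WT libraries for 2313 of them (88.7%) and at least 100 for 915, with medians of 82.7 reads in WT replicate 1 and 98.3 in WT replicate 2. The rule already asked for at least 50 reads in each KO library. The share at 50 expected reads thus follows in large part from the rule and is no independent result. By the lower of both WT values, the largest expected coverages were at Eif3f (1707 and 2163 reads), Ctsd (1269 and 1572) and Evl, an actin regulator gene (1091 and 1200). A local check used WT reads at the nearest listed position within 25 bases, which 2060 sites had in either WT list and 749 in both. There, 615 sites had at least 50 reads nearby in both.

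The same calculation in the opposite direction gave a larger share of absences, and more so at high levels. Among KO-shared sites with an expected WT coverage of at least 50 reads, 2313 of 3644 (63.5%) were in neither WT list. Among those with both levels at least 0.2 the share was 170 of 365 (46.6%), and at 0.3 it was 28 of 73 (38.4%). WT-shared sites with an expected KO coverage of at least 50 reads were in neither KO list in 80.5% of 10177 cases. That share was 85.7% of 4485 with both levels at least 0.2 and 86.0% of 2811 at 0.3. A higher level thus went with fewer absences from WT for KO sites and with more absences from KO for WT sites. These shares rest on even coverage along a gene, and sites of 1 gene are not independent.

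The 28 sites with an expected WT coverage of at least 50 reads and KO levels of at least 0.3 in both libraries were each in a different gene. Polr2m had 0.389 (157 reads) and 0.306 (252 reads) at chr9:71388739 on the minus strand, with an expected WT coverage of 142 and 171 reads. The nearest listed WT positions, within 25 bases, had 209 and 243 reads. Cnot7, a deadenylase subunit gene, had 0.333 (132 reads) and 0.5 (68 reads), with 197 and 202 WT reads nearby. Eps15l1, an endocytic adaptor gene, had 0.321 (81 reads) and 0.330 (91 reads), with 197 and 204 WT reads nearby. At these 3 sites WT reads were thus present close by, yet no WT level was listed. Sox1, a neural progenitor transcription factor gene, had 0.301 (123 reads) and 0.328 (61 reads), with 70.8 and 94.3 reads expected in WT. Fzd5, a Wnt receptor gene of the eye field, had 0.558 (95 reads) and 0.364 (66 reads), with 232 and 337 reads expected.

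Some host genes had few or no listed positions in the WT. Of the 2805 sites in protein-coding hosts, 2781 lay in genes with a listed position in both WT lists, 17 in genes with one in 1 WT list and 7 in genes with none. The 3 genes described next were singled out after their values were seen. Irx3, a homeobox gene of the early neural plate, held 5 KO-only sites and had 1 and 0 listed positions in the WT lists against 21 and 17 in the KO lists. At its 5 sites the expected coverage in WT replicate 1 was 34.1 to 42.8 reads. That is an estimate from a gene coverage of 43.9 and no count at those positions. Dmbx1, a homeobox gene of the embryonic midbrain, held 2 sites and had no WT position, against 47 and 20 in the KO lists. Dbx1, another neural homeobox gene, held 2 sites and had 0 in both WT lists against 7 and 9. For Dmbx1 and Dbx1, and for Irx3 in WT replicate 2, no WT coverage was available. There, absence from the WT lists cannot be told apart from low coverage.

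Gene coverage, which in these lists stands for transcript abundance, was compared between KO and WT across the 8272 genes with a value in all 4 libraries. Coverage bears on whether a site is listed, so the host genes' counts are no independent result. By limma, with the same threshold, KO coverage was called higher for 2.56% of all genes and lower for 3.03%. Among 1875 host genes, 59 (3.15%) were higher and 63 (3.36%) lower, close to those shares. The median log2 difference was -0.04 in host genes and -0.02 in all genes tested. Of the 2609 sites in genes with a value, 74 lay in genes called higher and 95 in genes called lower, so most sat in genes whose coverage did not pass the test. The calls depended on the replicates: without KO replicate 2 the whole table gave 4 genes higher and 14 lower, and without KO replicate 1 it gave 14 and 27. Without WT replicate 2 it gave 105 and 120.

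**Figure D4:**
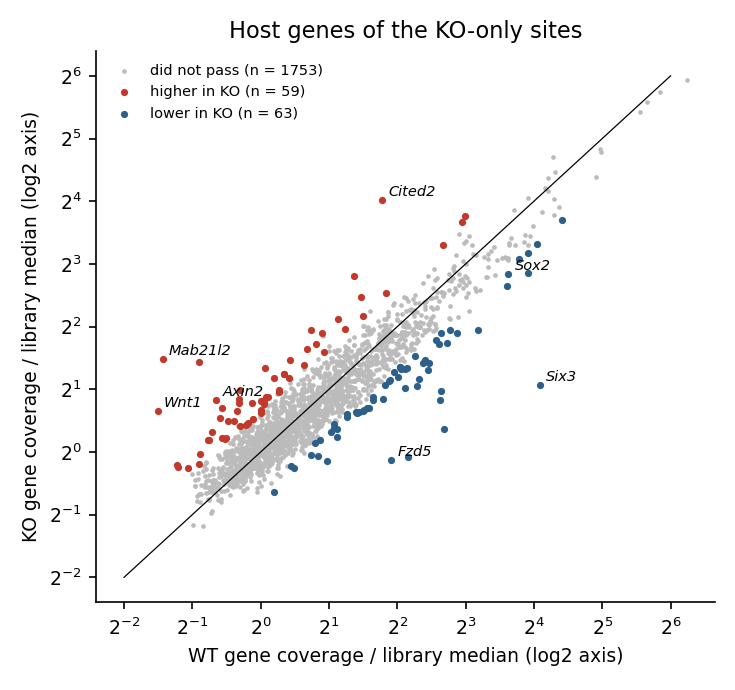
Gene coverage divided by the library's median, as the geometric mean of 2 KO libraries (y axis, log2) against 2 WT libraries (x axis, log2); each point is a host gene of a KO-only site, red where limma called it higher in the KO (59), blue where lower (63), and the line marks equality. Grey points, which did not pass, hold most host genes; Cited2, Mab21l2 and Wnt1 lie above the line and Six3, Fzd5 and Sox2 below it.

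Mab21l2, Cited2 and Wnt1 were among the host genes called higher in the KO, and were singled out after their values were seen. Relative coverage of Mab21l2, an eye and neural development gene, was 0.413 and 0.331 in WT and 2.97 and 2.64 in KO libraries, a log2 difference of 2.92 ± 0.18 (SE). Cited2, a transcriptional co-regulator gene, had 3.11 and 3.75 in WT and 16.8 and 15.7 in KO libraries (log2 difference 2.24 ± 0.17). Wnt1, a signal of the midbrain-hindbrain boundary, had 0.409 and 0.302 against 1.33 and 1.86 (2.16 ± 0.21). The adjusted p by limma was 1.00e-05 for Mab21l2, 3.57e-05 for Cited2 and 0.00028 for Wnt1. The expected WT coverage was 13.1 and 12 reads at the Mab21l2 site, under the lists' minimum of 15. It was 18.3 and 15.4 reads at the first Wnt1 site and 19.8 and 16.6 at the second, just above it.

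Cited2 held 3 KO-only sites, and 2 of them were read deeply. At chr10:17600543 on the plus strand the level was 0.172 (1017 reads) in KO replicate 1 and 0.142 (952 reads) in replicate 2. At chr10:17600548, 5 bases further, it was 0.216 (955 reads) and 0.148 (917 reads), which differed between replicates. Expected WT coverage was 178 and 245 reads at the first and 167 and 230 at the second, well above the lists' minimum, while at the third, chr10:17599901, it was 9.28 and 12.7 reads.

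Six3, Fzd5, Sparc and Sox2 were among the host genes called lower, singled out in the same way. Relative coverage of Six3, a homeobox gene needed for eye and forebrain formation, was 16.3 and 17.6 in WT and 1.81 and 2.45 in KO libraries, a log2 difference of -3.01 ± 0.19 (SE; limma adjusted p 1.00e-05). Fzd5 had 3.33 and 4.24 in WT against 0.821 and 1.03 in KO libraries (-2.03 ± 0.19; limma adjusted p 0.00021). Sparc, a matrix glycoprotein gene, fell by 1.65 on the log2 scale (SE 0.16), and Sox2 by 0.79 (SE 0.18). Sox2 did not pass without WT replicate 2 (limma adjusted p 0.0929), KO replicate 1 (0.0770) or KO replicate 2 (0.155). The Six3 site had KO levels of 0.323 (62 reads) and 0.214 (56 reads), with 405 and 498 reads expected in WT.

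Genes of the m6A pathway were looked up by list. In the writer complex, 4 KO-only sites lay in 2 of 8 genes: 3 in Cbll1, a ubiquitin ligase that associates with the complex, and 1 in Mettl3. The Mettl3 site, at chr14:52537743 on the minus strand, had levels of 0.131 (198 reads) and 0.127 (110 reads), with 115 and 105 reads expected in WT. The median level of the 4 was 0.125, beside 0.153 over all KO-only sites. None of the 7 writer genes tested passed the coverage test. Their median log2 difference was 0.29, beside -0.02 for all genes. Mat2a, which encodes methionine adenosyltransferase and carries the known METTL16 sites, held 1 KO-only site with levels of 0.100 (249 reads) and 0.128 (86 reads). Mat2a had 7 KO-shared sites at the coverage minimum, so the other 6 were also in a WT list.

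Among 10 other adenosine methyltransferase genes, only Trmt10c, a mitochondrial tRNA methyltransferase, held a site, with levels of 0.344 (61 reads) and 0.386 (57 reads). Reader and eraser genes held 18 KO-only sites in 7 of 10 genes, out of 25 KO-shared sites at the coverage minimum, with mean levels from 0.107 to 0.374. In Ythdf2, a cytoplasmic m6A reader that promotes decay, the level was 0.143 (98 reads) in KO replicate 1 and 0.605 (114 reads) in KO replicate 2. In Fto, an eraser, it was 0.260 (77 reads) and 0.369 (65 reads), and in Igf2bp1 it was 0.159 (113 reads) and 0.374 (123 reads). The Ythdf2 and Igf2bp1 sites differed between replicates and the Fto site did not pass. Coverage was higher in the KO for 3 of the 9 readers and erasers tested, by limma: Ythdf1 (log2 difference 0.73, adjusted p 0.0361), Ythdf2 (0.66, adjusted p 0.0404) and Ythdc1 (0.74, adjusted p 0.0297). None was lower, and the list's median was 0.23, beside 2.56% of all genes called higher and a median of -0.02. None of the 3 passed when any 1 library was left out (limma adjusted p 0.0692 to 0.221) or without centring (0.123 to 0.212).

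Structured noncoding RNAs and mitochondrial genes held no KO-only site, in libraries of poly(A) RNA. No such site lay in the 8 structured noncoding RNAs listed, of which 2 had a listed position in any library, nor in the 32 mitochondrially encoded genes, of which 20 had one, although 1 KO-only site was placed on the mitochondrial chromosome outside them. Long noncoding RNAs of the list held 9 sites in Malat1, Snhg11 and Meg3. Malat1 is a nuclear RNA with known m6A sites, and its KO-only site with the highest mean level had 0.238 (84 reads) and 0.250 (56 reads). Cytosolic ribosomal protein genes held 30 sites in 26 genes, at a median level of 0.151. Besides Rpsa, other high ones also differed between replicates: Rpl15 had 0.121 (91 reads) and 0.529 (51 reads), and Rps15a 0.316 (117 reads) and 0.106 (123 reads). That list includes pseudogene symbols of the same names, among which reads of near-identical copies can be split. Histone genes held 2 sites, in H2ac10 (0.169 and 0.130) and H1f10 (0.145 and 0.141).

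Position within genes was close to that of the mixed-genotype pairs. The shares near either gene end lay just outside their range, on the side of the WT pair. The lists mark 1474 KO-only sites (45.4%) as intronic, against 43.3% to 45.8% in mixed pairs and 46.1% in the WT pair. With a protein-coding host, 27.5% of marked and 26.1% of unmarked sites lay within 1000 bases of the gene's 3′ end. Of those within 50 bases of a gene start, 5 carried the mark and 2 did not. The intronic share is thus that of the mark, which was not checked against exons. Methylated sites of messenger RNA are known to gather near stop codons and in 3′ untranslated regions. Of the 2805 sites with a protein-coding host, 750 (26.7%) lay within 1000 bases of the gene's 3′ end, against 21.9% to 26.5% in mixed pairs and 38.6% in the WT pair. Within 300 bases of the gene start lay 149 (5.31%), against 5.62% to 6.28% and 2.57%, and 7 lay within 50 bases. Those near the 3′ end had median levels of 0.135 and 0.157, the same to 3 digits as all KO-only sites. Chromosomes 11, 8 and 7 held the most sites, with 290 (8.94%), 277 (8.54%) and 254 (7.83%). Of all positions with at least 50 reads in either KO list, 8.50%, 7.08% and 6.93% lay there.

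**Figure D5:**
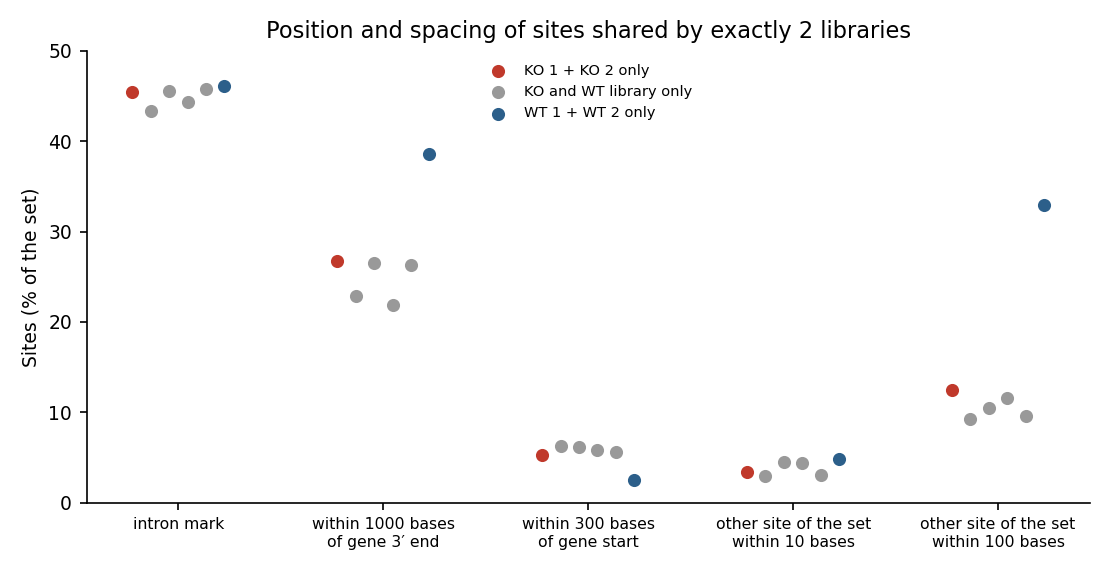
Percent of sites (y axis) with the lists' intron mark, near either end of a protein-coding host, or near another site of the same set (x axis), for sets shared by exactly 2 libraries; each point is 1 set. The red KO pair lies within or near the grey mixed-genotype pairs, and the blue WT pair stands apart for the 3′ end (38.6%) and for neighbours within 100 bases (33.0%).

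The sites were mostly solitary. The median distance to the next KO-only site on the same strand was 37115 bases. Another KO-only site lay within 10 bases of 112 sites (3.45%), against 2.96% to 4.47% in mixed pairs, and within 100 bases of 403 (12.4%), against 9.23% to 11.6% in mixed pairs and 33.0% in the WT pair. Joining sites no more than 25 bases apart gave 105 clusters with 213 sites in all, and only 3 clusters held 3 sites. In Axin2, a Wnt target gene that restrains Wnt signalling, these lay between chr11:108840870 and chr11:108840880 on the plus strand. Their levels were 0.211, 0.226 and 0.291 in KO replicate 1 and 0.237, 0.226 and 0.191 in KO replicate 2. Axin2 coverage was higher in the KO by 1.48 ± 0.25 on the log2 scale (limma adjusted p 0.00949; 0.0991 without KO replicate 2, when it did not pass), and the expected WT coverage there was 26.8 to 40.6 reads.

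The cluster in Bahcc1, a chromatin-associated gene, spanned chr11:120164616 to chr11:120164630 on the plus strand, with levels from 0.208 to 0.246 in KO replicate 1 and from 0.116 to 0.315 in KO replicate 2. Its expected WT coverage was 128 to 185 reads. That in Nubp1, an iron-sulfur protein assembly gene, spanned chr16:10240738 to chr16:10240757, with levels from 0.107 to 0.145 over both replicates. Any listed position, in place of a KO-only site, lay within 25 bases of 1368 and 1441 of the sites in the WT lists, and of 1584 and 1936 in the KO lists. The rule asks for listing in both KO libraries and absence from both WT libraries, so these counts are a description and support no difference between genotypes.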

How the data were processed

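One list per library was used. Per the file headers, the authors deposited read counts (A plus G, and A) at each adenosine, the level as a fraction, the gene's conversion rate as a fraction, a gene coverage signal, and a p-value with its adjusted value. The counter and caller are not given in the sources used here, and the submitters' processing notes name mm10. Values that span a chromosome rather than a gene were left out of gene values. Genotypes were compared with limma 3.58.1 in R 4.3.3, on log2 gene coverage and on log odds of conversion, each library centred on its median over 8272 genes, with Benjamini-Hochberg adjustment and a threshold of 0.05. KO replicates were compared with Fisher's exact test on counts (scipy 1.17.1). On simulated data, 200 of 200 genes changed by 1.5 (log2) in coverage were recovered with 17 false calls among 8272 genes, and 162 of 200 for conversion with 7. For Fisher's test, 195 of 200 sites changed by 0.4 in level were recovered among 11878, with 8 false calls. Those counts were binomial, and the changed sites had at least 50 reads in each KO library. At KO-only sites the median absolute difference between KO replicates was 0.0420. The recovery thus does not speak for differences of that size, nor the false calls for reads that are not independent. Named sites were the 8 with the highest KO level and 1 host gene, the 6 with the highest coverage, the 6 with the highest expected WT coverage, the 6 hosts with most sites, and up to 5 per gene list. Other names, among them sites high in both libraries and called host genes, were chosen after their values were seen. The sites and gene lists were chosen with earlier results of these data known. Gene kinds came from RefSeq symbols of GRCm38.p6, which matched 21473 of 29181 annotated features. Alternatives covered coverage and level minimums, centring, filters, the replicate block and leaving out each library.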

Additional observations from a re-analysis of the deposited data

How the results depend on the processing

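The number of KO-only sites followed the coverage minimum: 7277 at 20 reads, 5570 at 30, 1016 at 100 and 232 at 200. With both levels at least 0.2 it was 249, and with 0.3 it was 54. Leaving out a library gave 3710 to 78290 sites, the highest without KO replicate 2, when a single KO list sets the sites. The median level was 0.179 at a minimum of 20 reads and 0.125 at 200, and 0.143 to 0.15 without each library. Sites with at least 50 expected WT reads numbered 2313, and 615 by reads at the nearest listed WT position, where fewer sites have a value. Leaving out a library gave 2342 to 2494. Sites of all the KO-shared 11878 that differed between KO replicates fell from 1044 to 499 when only those with at least 50 reads were tested, while KO-only calls went from 316 to 318. Without centring, coverage was called higher in the KO for 101 genes and lower for 300, beside 212 and 251. At a mean coverage of at least 50, an alternative added after seeing the data, 385 were higher and 363 lower. Leaving out a library gave 4 to 210 genes higher and 14 to 188 lower. The conversion rate gave 0 calls under every alternative run. Same-numbered libraries deviated from their group means with a correlation of -0.03 for coverage. That gives no sign of pairing by number but cannot exclude it. The fit with the replicate block gave 267 higher and 279 lower for coverage and 0 for conversion. Of 17 named genes called in coverage, 9 passed without KO replicate 2, 10 without KO replicate 1, 12 without WT replicate 2 and 14 without WT replicate 1, all in the same direction. Log2 differences of 3 uncalled genes changed sign: Srrm2 was at -0.10 without centring and ran from -0.047 to 0.060 without each library, Setd5 from -0.23 to 0.061 and Polr2m from -0.38 to 0.017. At the median of 83 reads in KO replicate 2, levels near 0.1 rest on few unconverted reads, which limits their precision.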
